A study of Homo sapiens with 12 samples.

Results

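The 10 genes described here encode the enzymes of the methionine cycle and of its betaine branch, and were taken by name from the 58575 usable genes of the count table and the 60617 genes of the TPM table. They are MAT1A, MAT2A, MAT2B, GNMT, AHCY, MTR, MTRR, BHMT, BHMT2 and DMGDH. The list was chosen by gene name and pathway with the TPM values and fold changes of these libraries already known, so the values of these 10 genes are a description, and p-values are given only for genes outside the list. RNA-Seq was carried out on 201B7, an established human iPSC line cultured in StemFit, harvested on Day 5. Cond 1 was the control, without further treatment. Cond 2 (low nutrient) received StemFit that had been heated at 56 °C for 30 min. Cond 3 (differentiation) received DMEM supplemented with GlutaMax (1%), MEM NEAA (1%) and FBS (10%). By the paper's account, the heated medium was given from Day 2 and FBS on Day 4. Comparisons of Cond 3 with Cond 2 therefore also set unequal lengths of exposure side by side. Cond 4 (physical stimulus) kept the control medium, and its cells were suspended by 20 strokes of the pipette at passaging. The 12 libraries, 3 per condition, came from the 1 line. The sources call the replicates both technical and triplicate, so the errors below measure the spread between these libraries, which may be technical.

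Methionine adenosyltransferase turns methionine and ATP into S-adenosylmethionine (SAM), the methyl donor of the cell. Methyl transfer leaves S-adenosylhomocysteine (SAH), which AHCY splits into adenosine and homocysteine. Homocysteine is methylated back to methionine either by MTR, with a folate methyl group and cobalamin, or by BHMT, with betaine. BHMT is known as an enzyme of liver and kidney, whereas MAT2A is the adenosyltransferase of most other dividing cells. Pluripotent stem cells are known for a high demand for methionine and SAM.

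Library totals lay between 16441148 and 21871503 counts, and 17747 genes passed edgeR's filter on low counts. Of 11 pluripotency markers, 10 had a mean of at least 8.07 TPM (reads per gene length, with an equal sum in all libraries) in Cond 1. POU5F1, which encodes OCT4, had 1.32 TPM there. In the paper's immunostaining most Cond 1 cells were OCT4-positive, so this RNA value does not mean that few cells hold the protein. The reason for the low value was not tested. The summed level of the 11 markers lay between 7393 and 9504 TPM over the 12 libraries. Single markers went both ways from Cond 1 to Cond 3, with means of 45.9 and 10.5 TPM for NANOG, 1299 and 689 for TDGF1, 908 and 1263 for SOX2, and 1371 and 1868 TPM for DNMT3B. In bulk RNA, a change in the share of cells of a kind and a change in RNA per cell cannot be told apart.

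The 10 genes spanned a wide range of levels in Cond 1. On the TPM scale, AHCY was highest with a mean of 418 ± 21.5 TPM (SD, n = 3), above 99.5% of the genes in the table. MAT2A followed with 298 ± 38.8 TPM, above 99.2% of genes. MAT2B had 50.9 ± 3.16 TPM, MTRR 27.5 ± 2.37, MTR 19.8 ± 3.00 and MAT1A 12.5 ± 1.99 TPM. GNMT was at 4.44 ± 1.56 TPM. DMGDH was at 0.496 ± 0.110 TPM, BHMT at 0.258 ± 0.252 TPM, and BHMT2 had 0 reads in the 3 control libraries. Thus the common part of the cycle was at high level in the control, and the betaine branch was at or near the limit of counting.

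**Figure D1:**
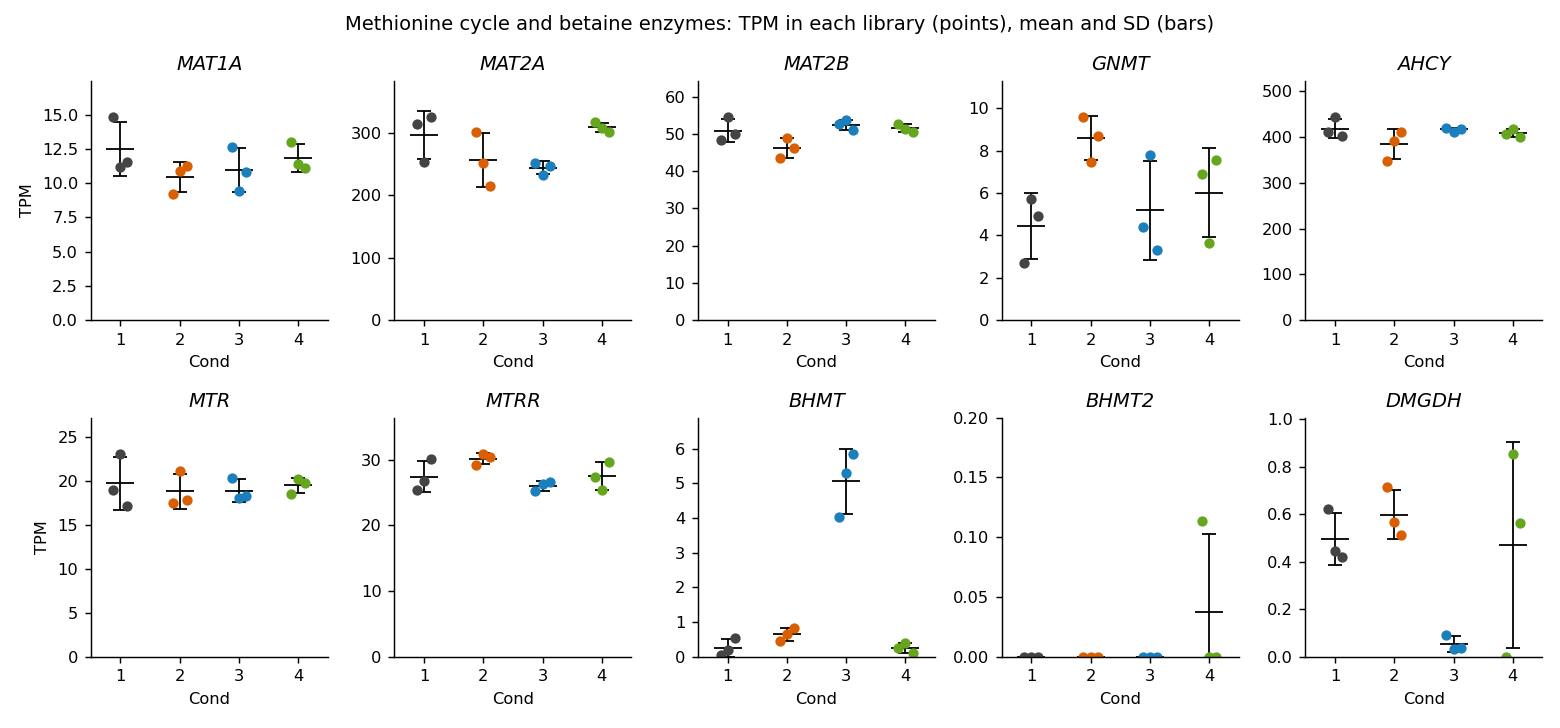
TPM of the 10 genes (vertical axes, each from 0) in Cond 1 to Cond 4 (horizontal axes). Points are libraries and bars give the mean and SD of 3 libraries. BHMT stands apart in Cond 3 at 4.03 to 5.84 TPM, DMGDH is lowest there among the conditions by its mean, and GNMT is highest in Cond 2 by its mean.

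BHMT, the betaine-homocysteine methyltransferase, had the largest fitted difference from Cond 1 among the 10 genes, and the difference was in Cond 3. Its reads numbered 1, 3 and 11 in Cond 1, 8, 13 and 14 in Cond 2, 86, 101 and 108 in Cond 3, and 4, 7 and 2 in Cond 4. The Cond 3 libraries were above all others. The range of Cond 1 overlapped with those of Cond 2 and Cond 4, while every Cond 2 library was above every Cond 4 library. As levels, BHMT had 0.0521, 0.182 and 0.538 TPM in Cond 1, 0.454, 0.653 and 0.833 TPM in Cond 2, 4.03, 5.29 and 5.84 TPM in Cond 3, and 0.242, 0.391 and 0.106 TPM in Cond 4. In order of means, Cond 4 (0.247 TPM), Cond 1 (0.258) and Cond 2 (0.647) were neighbours whose ranges overlapped, and Cond 3 (5.05 ± 0.929 TPM) stood clear of them.

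On the log2 scale of the edgeR fit, BHMT was 4.19 ± 0.495 (SE) higher in Cond 3 than in Cond 1, with a 95% interval of 3.16 to 5.22, an 18.2-fold difference. Against Cond 2 the difference was 3.02 ± 0.441, or 8.09-fold. The count ratio of Cond 3 to Cond 1, 295 against 15 reads scaled for library size, was 18.3 with an exact counting interval of 10.9 to 33.2. Such intervals cover counting error only. The fold rests on the low control value. Leaving out each library of either condition in turn gave log2 differences between 3.70 and 5.38, with the highest without Cond 1 replicate 3, which held 11 of the 15 control reads. In Cond 2, BHMT was 1.17 ± 0.572 above Cond 1 (95% interval -0.01 to 2.36), within overlapping ranges and not called. Without Cond 1 replicate 3 that difference was 2.37 and was called.

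DMGDH, the mitochondrial dimethylglycine dehydrogenase, oxidises the dimethylglycine that BHMT releases from betaine. Its reads numbered 18, 11 and 13 in Cond 1, 19, 17 and 13 in Cond 2, 3, 1 and 1 in Cond 3, and 0, 23 and 16 in Cond 4. The Cond 3 libraries lay below all libraries of Cond 1 and Cond 2, in the opposite direction to BHMT. Cond 4 replicate 1 held 0 reads, whereas replicate 2 of that condition held 23, the highest count of the series. As levels, DMGDH had a mean of 0.496 ± 0.110 TPM in Cond 1, 0.599 ± 0.105 in Cond 2, 0.0546 ± 0.0334 in Cond 3 and 0.472 ± 0.434 TPM in Cond 4. In order of means, Cond 3, Cond 4, Cond 1 and Cond 2 followed each other, and each overlapped with its neighbour.

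With 5 reads in Cond 3 against 42 in Cond 1, the count ratio of Cond 3 to Cond 1 was 0.111 with an exact counting interval of 0.0343 to 0.280. The fitted log2 difference was -3.08 ± 0.881 (SE), and -3.27 ± 0.871 against Cond 2. Leaving out single libraries gave -3.68 to -2.86 against Cond 1. With limma, the differences were -0.50 on log2(TPM + 1) and -1.95 on log2(TPM + 0.1), scales that understate changes of low genes, and were not called. In Cond 4 the difference from Cond 1 was -0.07 over the 3 libraries, and lay between -0.78 (without Cond 4 replicate 2) and 0.50 (without Cond 4 replicate 1) when single libraries were left out, none of them called.

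BHMT2, a second methyltransferase of the family, which uses S-methylmethionine, had 0 reads in 11 libraries and 2 reads in Cond 4 replicate 1 (0.113 TPM). It did not pass the filter on low counts and was not tested. A count of 0 allows up to 3 reads per library, which is more than the 2 reads counted in Cond 4 replicate 1. A difference between conditions was not detectable at this depth.

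**Figure D2:**
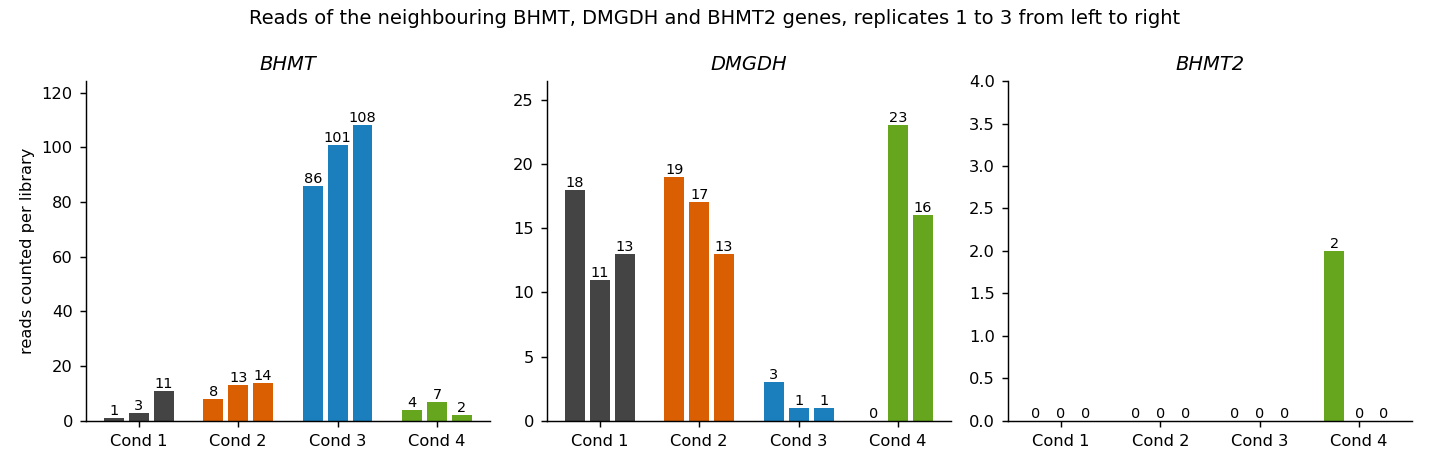
Reads counted per library (vertical axes, from 0) for BHMT, DMGDH and BHMT2, with the 3 libraries of each condition as bars in replicate order. In Cond 3, BHMT has 86 to 108 reads and DMGDH 1 to 3, and BHMT2 has 2 reads in a single library of Cond 4.

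These 3 genes lie together on chromosome 5 (GRCh38, GENCODE release 44). DMGDH is on the minus strand at chr5:78997564-79236038, BHMT2 on the plus strand at chr5:79069767-79090069 and BHMT on the plus strand at chr5:79111809-79132288, so that both BHMT genes lie within the span of the longest DMGDH transcripts. In RefSeq (GRCh38.p14), DMGDH starts at 79069674, and 92 bases separate this start from that of BHMT2 on the other strand. BHMT starts 42042 bases further on. The start regions are shown because the 3 neighbours differed in their values. The first line below holds the 250 bases before the BHMT start (chr5:79111559-79111808, plus strand) and the second the 92 bases between the DMGDH and BHMT2 starts (chr5:79069675-79069766, plus strand), with any match to TATAAA in capitals.
BHMT: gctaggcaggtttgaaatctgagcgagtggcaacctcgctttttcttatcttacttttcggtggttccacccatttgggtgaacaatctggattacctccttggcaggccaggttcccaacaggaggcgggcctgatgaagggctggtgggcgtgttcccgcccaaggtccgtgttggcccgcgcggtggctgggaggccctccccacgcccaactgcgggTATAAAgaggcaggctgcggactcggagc
DMGDH-BHMT2: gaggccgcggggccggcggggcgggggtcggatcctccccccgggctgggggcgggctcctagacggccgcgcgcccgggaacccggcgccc
The 92 bases between DMGDH and BHMT2 had a GC content of 87%, and the 250 bases before BHMT 60.4%, where the median of all promoters was 58%. TATAAA began at position -29 of BHMT, counted from -1 for the base before the start. It was not found in the 250 bases before the starts of DMGDH and BHMT2. Bases after the starts were not searched. Of 35116 RefSeq promoters, 10.7% held TATAAA on either strand in the 250 bases before the start. CCAAT, searched on both strands, had no match in these 250 bases of BHMT, BHMT2 and DMGDH, and 32% of all promoters held it. There was also no match to CACGTG, which 6.34% of promoters held. Nor was there a match to TGATGNAA, which 3.14% of promoters held. The motifs were chosen after the values had been seen, and a match is a description of the letters only.

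BHMT and DMGDH share 239 exon bases on opposite strands, and 187 of the 31-base words of their transcripts are the same on either strand. BHMT shares 148 such words with BHMT2, of 3477 BHMT and 3783 BHMT2 words. The libraries were strand-specific, but the strand setting of the counting and the handling of reads with several matches are not given in the sources used here, so reads from these stretches cannot be told apart with certainty. In Cond 3, with 86 to 108 BHMT reads a library, 1 to 3 DMGDH reads and 0 BHMT2 reads were counted, while Cond 4 replicate 1, with 4 BHMT reads, held 0 DMGDH reads.

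Within 500 kb of the span of the 3 genes, 19 other annotated genes had a count row, and 7 passed the filter. Against Cond 1, edgeR called 0 of the 7 in Cond 2, Cond 3 and Cond 4, where it called 20.9%, 38.4% and 0.0282% of all genes tested. At an unadjusted p under 0.05 the counts were 0, 2 and 0, and DESeq2 and limma on log2(TPM + 1) also called 0 in each. On the log2 scale, the difference of Cond 3 from Cond 1 was 0.09 ± 0.0770 for LHFPL2, 0.23 ± 0.102 for ARSB, -0.19 ± 0.0773 for JMY, -0.51 ± 0.602 for AC020898.1, -0.14 ± 0.0822 for HOMER1, -0.15 ± 0.0896 for TENT2 and 0.09 ± 0.213 for CMYA5. JMY was called when the 6 libraries of Cond 1 and Cond 3 were compared alone (-0.20), and ARSB without Cond 3 replicate 2 (0.29). Against Cond 2, JMY (-0.22, edgeR adjusted p = 0.029) and HOMER1 (-0.23, adjusted p = 0.0274) were lower in Cond 3. Without Cond 2 replicate 2, or without Cond 3 replicate 3, 0 of the 7 were called in that comparison, and without Cond 3 replicate 2 JMY alone was.

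Markers of liver and kidney, the tissues BHMT is known for, were measured beside it. The summed level of 10 hepatocyte markers was 2.55 to 3.55 TPM in Cond 1, 2.25 to 5.26 in Cond 2, 7.64 to 12.8 in Cond 3 and 3.12 to 3.87 TPM in Cond 4. Of the 10, 1 had a mean of at least 1 TPM in Cond 1 and 2 in Cond 3. APOA1 had a mean of 2.48 TPM in Cond 1 and 5.29 in Cond 3, and AFP 0.280 and 3.85. APOB had 0.0695 and 0.558 TPM, and HNF4A 0.00966 and 0.113. ALB and FGB were at 0 in Cond 3, and TTR in every condition. The summed level of 6 kidney proximal tubule markers was 3.78 to 4.21 TPM in Cond 1 and 15.3 to 17.7 in Cond 2. It was 6.23 to 7.16 TPM in Cond 3 and 3.23 to 4.32 in Cond 4. Among them LRP2 had means of 3.26, 16.5, 6.08 and 3.05 TPM in Cond 1 to Cond 4, and SLC22A6 and SLC34A1 were at 0 in Cond 3. From Cond 1 to Cond 3, CUBN went from 0.0929 to 0.195 TPM, AQP1 from 0.221 to 0.208 and SLC5A2 from 0.292 to 0.194. The part of these liver and kidney markers in the BHMT result was not tested.

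MAT2A and MAT1A encode the catalytic subunits of methionine adenosyltransferase, MAT1A being the liver form, and MAT2B its regulatory subunit. MAT2A had 314, 253 and 325 TPM in Cond 1, 302, 252 and 215 in Cond 2, 252, 232 and 248 in Cond 3, and 317, 308 and 302 TPM in Cond 4. The Cond 3 libraries lay just below the lowest control library, and those of Cond 2 overlapped with the control. In order of means, Cond 3 (244 TPM), Cond 2 (256), Cond 1 (298) and Cond 4 (309) each overlapped with the next. The log2 differences of Cond 2, Cond 3 and Cond 4 from Cond 1 were -0.30 ± 0.0956, -0.31 ± 0.0955 and 0.04 ± 0.0953.

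The Cond 2 and Cond 3 differences of MAT2A passed the adjusted threshold, but the call was not stable. In Cond 2 it ended without Cond 1 replicate 1 (-0.27), Cond 1 replicate 3 (-0.22), Cond 2 replicate 2 (-0.28) or Cond 2 replicate 3 (-0.18). In Cond 3 it ended without Cond 1 replicate 1 (-0.28), Cond 1 replicate 3 (-0.24) or Cond 3 replicate 2 (-0.28). With DESeq2, with limma and with edgeR's robust fit, MAT2A was called in neither condition, and in Cond 2 also not with the 6 libraries alone. MAT2A shares 562 exon bases with GGCX on the opposite strand.

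MAT1A had 14.8, 11.2 and 11.6 TPM in Cond 1, 9.24, 10.9 and 11.3 in Cond 2, 12.7, 9.47 and 10.9 in Cond 3, and 13.0, 11.4 and 11.1 TPM in Cond 4. All conditions overlapped, and the log2 differences from Cond 1 were -0.35 ± 0.144, -0.22 ± 0.142 and -0.10 ± 0.143, none of them called. The ratio of MAT2A to MAT1A, in TPM, was 24.0 ± 3.67, 24.96 ± 6.97, 22.4 ± 2.32 and 26.2 ± 1.61 in Cond 1 to Cond 4. The lowest ratio in a single library was 19.1 and the highest 32.7, so the form of most dividing cells was far above the liver form in all 12, also in Cond 3 where BHMT was high.

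MAT2B had 48.3, 54.4 and 50.0 TPM in Cond 1, 43.6, 48.8 and 46.2 in Cond 2, 52.7, 53.6 and 51.1 in Cond 3, and 52.8, 51.2 and 50.6 TPM in Cond 4. Cond 2 was lowest, overlapping with Cond 1 in its highest library but lying below every library of Cond 3. The log2 difference from Cond 1 was -0.23 ± 0.0653 in Cond 2 and 0.02 ± 0.0648 in Cond 3. From Cond 2 to Cond 3 it was 0.24 ± 0.0651. The call in Cond 2 ended without Cond 1 replicate 2 (-0.18) and with limma on log2(TPM + 1) (-0.14), and the difference from Cond 2 to Cond 3 was not called by limma either (0.18).

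GNMT, glycine N-methyltransferase, consumes SAM to make sarcosine and is known as a liver enzyme. It had 2.70, 5.71 and 4.92 TPM in Cond 1, 9.56, 7.49 and 8.68 in Cond 2, 4.40, 7.81 and 3.33 in Cond 3, and 6.87, 3.62 and 7.56 TPM in Cond 4. All Cond 2 libraries were above all Cond 1 libraries, and the other pairs of conditions overlapped. In order of means, Cond 1 (4.44 TPM), Cond 3 (5.18), Cond 4 (6.02) and Cond 2 (8.58) each overlapped with the next. The 3 libraries of a condition held 76, 143, 94 and 99 reads in Cond 1 to Cond 4.

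The log2 difference of GNMT in Cond 2 from Cond 1 was 0.86 ± 0.379 with a 95% interval of 0.08 to 1.65, and was not called. In Cond 3 it was 0.20 ± 0.389 and in Cond 4 0.43 ± 0.387. From Cond 2 to Cond 3 it was -0.67 ± 0.371, called only without Cond 3 replicate 2 (-1.09). In Cond 2, the summed level of 7 neuroectoderm markers was 263 to 430 TPM, against 17.6 to 26.7 in Cond 1, and that of the 10 hepatocyte markers is given above. SIX3 and HESX1 held most of that neuroectoderm sum in Cond 2. Means in Cond 1 and Cond 2 were 2.39 and 157.6 TPM for SIX3, 17.0 and 172 for HESX1, and 0.501 and 10.7 for RAX. They were 0.745 and 2.66 for LHX2, 0.0447 and 0.225 for PAX6, 0.120 and 0.259 for SOX1, and 1.05 and 0.998 for SIX6. The part of these markers in the GNMT values was not tested.

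AHCY, the enzyme that clears SAH, had 411, 442 and 401 TPM in Cond 1, 348, 392 and 412 in Cond 2, 419, 412 and 418 in Cond 3, and 406, 417 and 400 TPM in Cond 4. All pairs of conditions overlapped, with 2 libraries of Cond 2 below every other library. The log2 differences of Cond 2, Cond 3 and Cond 4 from Cond 1 were -0.21 ± 0.0520, -0.03 ± 0.0519 and -0.05 ± 0.0519. From Cond 2 to Cond 3 it was 0.18 ± 0.0519, a call that ended without Cond 2 replicate 1 (0.13). With limma on log2(TPM + 1), AHCY was not called in Cond 2 against Cond 1 (-0.13) or from Cond 2 to Cond 3 (0.12). Annotated AHCY pseudogenes held 15 reads over all libraries against 101042 for AHCY, and summing them changed no call.

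MTR, the cobalamin-dependent methionine synthase, had 19.0, 23.1 and 17.2 TPM in Cond 1, 17.6, 21.2 and 17.8 in Cond 2, 20.4, 18.0 and 18.3 in Cond 3, and 18.5, 20.2 and 19.8 TPM in Cond 4. Its log2 differences from Cond 1 were -0.15 ± 0.0895, -0.09 ± 0.0892 and -0.03 ± 0.0894. MTRR, the reductase that keeps MTR active, had 25.4, 26.8 and 30.1 TPM in Cond 1, 29.3, 30.9 and 30.5 in Cond 2, 25.2, 26.3 and 26.7 in Cond 3, and 27.4, 25.4 and 29.6 TPM in Cond 4. Its log2 differences from Cond 1 were 0.05 ± 0.0807, -0.11 ± 0.0810 and -0.01 ± 0.0811. None of these passed the threshold, and the 95% intervals of both genes stayed within -0.34 and 0.22. The Cond 3 libraries of MTRR lay below those of Cond 2, with a log2 difference of -0.15 ± 0.0808 that was not called.

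**Figure D3:**
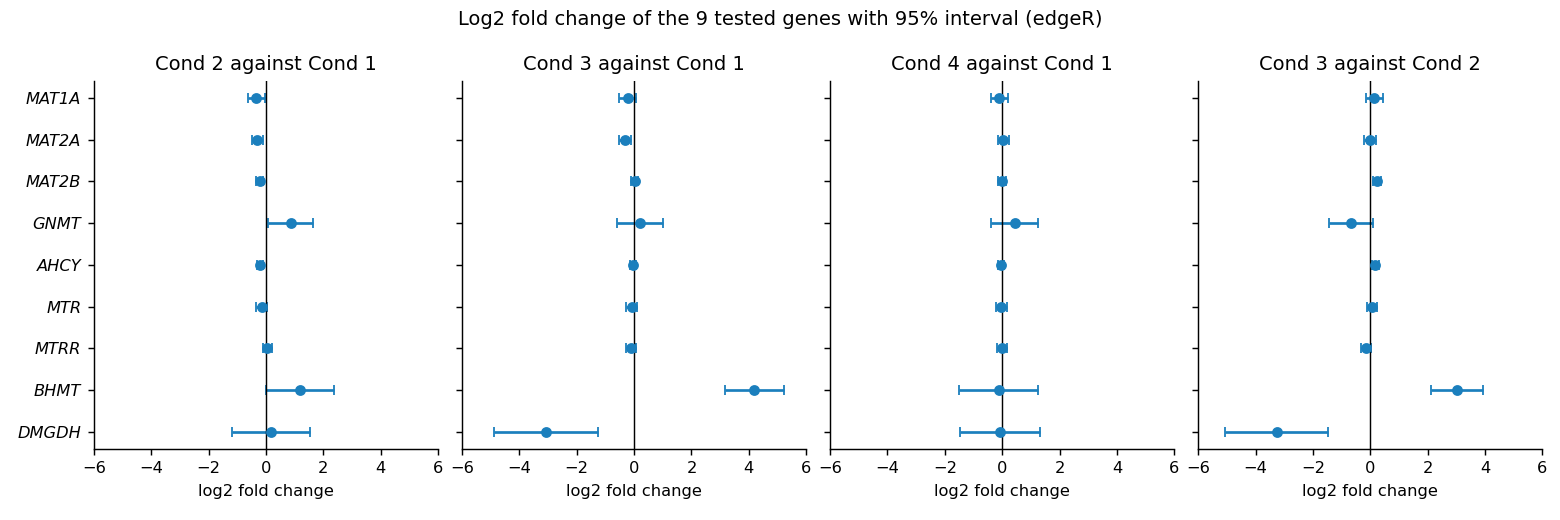
Log2 fold change (horizontal axes) of the 9 tested genes in 4 comparisons, from the edgeR fit of 12 libraries, with bars for the 95% interval. BHMT at 4.19 and DMGDH at -3.08 in Cond 3 against Cond 1 are far from 0 on opposite sides, and in Cond 4 every interval includes 0.

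Of the 10 genes, 9 passed the filter on low counts, which used the same libraries that are compared. BHMT met it in all Cond 3 libraries and in some others, and DMGDH only in conditions other than Cond 3. Called genes (edgeR adjusted p under 0.05 over 17747 genes) numbered 3 in Cond 2 against Cond 1 (MAT2A, MAT2B and AHCY, all lower), where 20.9% of all genes tested were called. They also numbered 3 in Cond 3 against Cond 1 (BHMT higher, DMGDH and MAT2A lower), where 38.4% of all genes were called. In Cond 4 against Cond 1, 0 were called with edgeR, DESeq2 or limma and 0 had an unadjusted p under 0.05, where 0.0282% of all genes were called. Between Cond 3 and Cond 2 they numbered 4 (BHMT, MAT2B and AHCY higher, DMGDH lower), where 38.2% of all genes were called. BHMT and DMGDH in Cond 3 against Cond 1 also had a fold change above 2, as had 8.16% of all genes, and the 3 genes called in Cond 2 did not, where 4.34% of all genes had. TPM ranges did not overlap for GNMT in Cond 2 (35.7% of all genes tested), for BHMT, DMGDH and MAT2A in Cond 3 (48.6%) and for 0 genes in Cond 4 (11.9%), each against Cond 1, and for BHMT, DMGDH, MAT2B and MTRR between Cond 3 and Cond 2 (47.6%).

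The 9 tested genes had a median log2 difference of -0.15 in Cond 2, -0.09 in Cond 3 and -0.03 in Cond 4 against Cond 1, beside 0.000183, -0.00637 and 0.000328 over all genes tested. The median size of the difference was 0.226, 0.197 and 0.0496 for the 9 genes, beside 0.210, 0.299 and 0.106 over all genes. From Cond 1 to Cond 3, 6 of the 9 differed by less than the median gene. The comparisons with Cond 1 share their control libraries.

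By likeness of log2(TPM + 1) over the 12 libraries, among 17623 genes, genes near to BHMT included SLC23A2 (Pearson r = 0.980), TAF5 (0.979), KIF19 (0.975) and LINC01963 (0.974). KIF19, a kinesin, had the lowest levels of these, with 0.447, 0.918, 5.52 and 0.475 TPM. The nearest to GNMT were TLCD1 (r = 0.942), CREBL2 (0.902), AC009312.1 (0.886), GLRX3 (0.868) and RUFY2 (0.867). The points share their libraries and conditions, and the values only order the genes by likeness.

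MAT2A was the other gene of the 10 with TATAAA before its start, at position -32, and it is shown beside BHMT because it had the second highest level of the 10 genes in Cond 1 and BHMT the second lowest. The 250 bases before its start (chr2:85538918-85539167, plus strand, GRCh38.p14) hold TATAAA and ATTGG, the reverse strand of CCAAT, in capitals.
MAT2A: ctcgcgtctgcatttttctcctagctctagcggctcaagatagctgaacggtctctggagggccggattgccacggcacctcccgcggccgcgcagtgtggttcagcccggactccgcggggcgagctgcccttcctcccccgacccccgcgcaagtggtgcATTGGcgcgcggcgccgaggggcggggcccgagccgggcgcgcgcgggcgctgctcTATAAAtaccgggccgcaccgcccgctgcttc
Of the 10 genes, 9 had a promoter in the RefSeq table used, and MTRR had none.

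The genes that feed and drain the cycle were taken from 6 lists with 68 genes, of which 57 were tested. In Cond 2 against Cond 1, 5 were higher, 7 lower and 45 not called (21.1% called, beside 20.9% of all genes), with a median log2 difference of 0.00387. The counts for Cond 3 against Cond 1 were 17 higher, 15 lower and 25 not called (56.1% called, beside 38.4%), with a median of 0.108. In Cond 4, 0 of 57 were called with edgeR, DESeq2 or limma, and 3 had an unadjusted p under 0.05. By list, in the order described below, the called share in Cond 2 was 33.3%, 10%, 40%, 0%, 27.3% and 14.3%, beside 20.9% of all genes. In Cond 3 it was 100%, 80%, 70%, 50%, 45.5% and 21.4%, beside 38.4% of all genes. The lists were chosen with earlier results known, and the counts are a description of them.

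In methionine import, all 6 tested transporters were called in Cond 3, 3 higher and 3 lower, with a median log2 difference of -0.31. The call of SLC38A1 (0.15), a neutral amino acid transporter, held in 2 of the 6 fits that left out a library and not with limma on log2(TPM + 1). In Cond 2, 1 was higher and 1 lower. SLC7A5, the light chain of the large neutral amino acid exchanger, had 585, 501 and 603 TPM in Cond 1 and 236, 246 and 241 TPM in Cond 3, lower by a log2 difference of -1.25 ± 0.0725 (edgeR adjusted p = 6.17e-12). Its partner SLC3A2 was lower by -0.76 ± 0.0614 (adjusted p = 1.56e-09), and SLC43A1 by -0.84 ± 0.0967 (adjusted p = 3.63e-07). SLC7A8, a related exchanger, was higher by 0.41 ± 0.0510 (adjusted p = 1.1e-06). In Cond 2, SLC7A5 was at 599, 565 and 660 TPM, with a log2 difference of 0.02 that was not called, and SLC43A1 was lower by -0.69 ± 0.0962 (adjusted p = 9.76e-06). The difference of SLC7A5 between Cond 3 and Cond 2 was -1.28 (edgeR adjusted p = 4.7e-12).

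In choline and betaine handling, 8 of 10 tested genes were called in Cond 3 (5 higher, 3 lower, median log2 difference 0.18), and 1 in Cond 2 (median 0.04). CHDH, which starts the conversion of choline into betaine, was higher in Cond 3 with 13.8, 14.6 and 13.4 TPM against 10.4, 8.71 and 9.51 in Cond 1 (log2 difference 0.52 ± 0.10, edgeR adjusted p = 0.000249). PIPOX, a peroxisomal oxidase of sarcosine and pipecolate, was higher by 0.64 ± 0.0963 (adjusted p = 1.3e-05). PCYT1A, of phosphatidylcholine synthesis, was higher by 0.37 ± 0.0893 (adjusted p = 0.00211), and PEMT, which makes phosphatidylcholine by SAM-dependent methylation, was lower by -0.42 ± 0.0926 (adjusted p = 0.000975). SLC6A12, a betaine transporter named after its values were seen, went from a mean of 0.314 to 1.27 TPM (1.99 ± 0.602, adjusted p = 0.0115), and was not called without Cond 1 replicate 1 (1.63). In Cond 2 the gene called was SLC44A2, a choline transporter-like protein, at 260, 256 and 241 TPM against 184, 177 and 163 in Cond 1 (0.45 ± 0.0587, adjusted p = 4.66e-06).

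Among polyamine synthesis and methionine salvage genes, 4 of 10 were called in Cond 2 (2 higher, 2 lower) and 7 of 10 in Cond 3 (3 higher, 4 lower). AMD1, which commits SAM to polyamines, had 66.1, 67.9 and 64.9 TPM in Cond 1, 82.7, 88.1 and 85.2 in Cond 2 and 145, 149 and 133 TPM in Cond 3. It was higher by 0.28 ± 0.0541 in Cond 2 (edgeR adjusted p = 0.000534) and by 1.07 ± 0.0540 in Cond 3 (adjusted p = 6.12e-13). ODC1, which makes putrescine, went in opposite directions, with 359, 348 and 341 TPM in Cond 1, 563, 600 and 621 in Cond 2 and 223, 205 and 193 TPM in Cond 3. Its log2 difference was 0.68 ± 0.0555 in Cond 2 (adjusted p = 3.45e-09), -0.78 ± 0.0564 in Cond 3 (adjusted p = 2.62e-10) and -1.46 from Cond 2 to Cond 3 (adjusted p = 7.98e-15). SAT1, which acetylates polyamines for breakdown or export, was lower in Cond 2 (-0.31 ± 0.0820, adjusted p = 0.00774, ranges overlapping) and in Cond 3 (-0.72 ± 0.0831, adjusted p = 3.63e-07). With limma on log2(TPM + 1), SAT1 was not called in Cond 2 (-0.23), and 2 of the 10 genes of this list were.

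In transsulfuration and sulfur oxidation, 3 of 6 tested genes were called in Cond 3 (1 higher, 2 lower) and 0 in Cond 2, where 0 had an unadjusted p under 0.05 and DESeq2 and limma called 0. CTH, which releases cysteine from cystathionine, was at 36.6, 32.8 and 38.5 TPM in Cond 3 against 78.3, 71.1 and 81.6 in Cond 1, lower by -1.13 ± 0.0881 (edgeR adjusted p = 1.02e-09). SUOX, sulfite oxidase, was higher by 0.55 ± 0.0975 (adjusted p = 0.000103). CBS, the first enzyme of this route, MPST and TST had no count row and were not tested. Their mean TPM in Cond 1 and Cond 3 was 29.2 and 25.2 for CBS, 38.6 and 75.3 for MPST, and 71.9 and 94.5 for TST. The ranges of TST overlapped and those of CBS and MPST did not.

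In folate and cobalamin supply, 3 of 11 tested genes were called in Cond 2 (1 higher, 2 lower) and 5 of 11 in Cond 3 (3 higher, 2 lower). FOLR1, a folate receptor, was higher in Cond 2 with 25, 17.8 and 18 TPM against 6.19, 8.96 and 6.90 in Cond 1 (1.38 ± 0.238, edgeR adjusted p = 0.000138). SLC46A1, the proton-coupled folate transporter, was lower there (-1.61 ± 0.297, adjusted p = 0.000295), and so was MTHFD1, which interconverts folate one-carbon units (-0.64 ± 0.0591, adjusted p = 2.51e-08). In Cond 3, LMBRD1 and MMADHC, both of intracellular cobalamin transport, were higher by 0.42 ± 0.111 (edgeR adjusted p = 0.00478) and lower by -0.23 ± 0.0591 (adjusted p = 0.00352).

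Among SAM-using enzymes, 2 of 14 tested genes were called in Cond 2 and 3 of 14 in Cond 3. These are 14.3% and 21.4%, beside 20.9% and 38.4% of all genes tested. In Cond 2, HNMT, histamine N-methyltransferase, was lower by -1.23 ± 0.344 (edgeR adjusted p = 0.0117). In Cond 3, PNMT, which methylates noradrenaline, had 11.2, 9.65 and 12.3 TPM against 6.60, 4.94 and 5.39 in Cond 1, higher by 0.94 ± 0.256 (adjusted p = 0.00566).

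**Figure D4:**
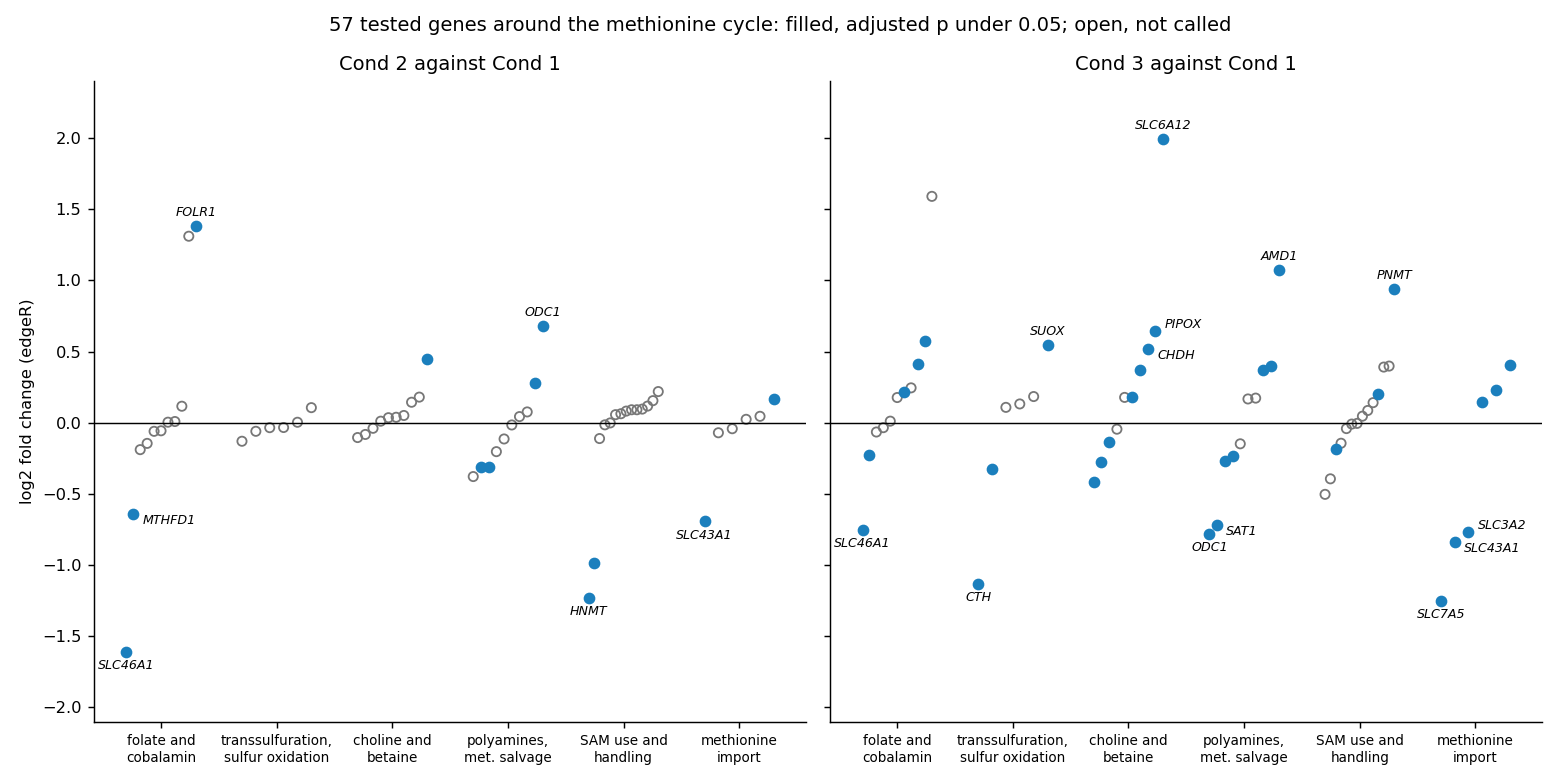
Log2 fold change (vertical axis) of the 57 tested genes of 6 lists (horizontal axis, genes in rising order within a list) in Cond 2 and Cond 3 against Cond 1. Filled points were called and open points were not. ODC1 is at 0.68 in Cond 2 and -0.78 in Cond 3, and SLC7A5 is at -1.25 in Cond 3.

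Some calls on these lists ended when any of several libraries was left out, in part with a difference of about the same size or larger. In Cond 2, HNMT was not called without Cond 1 replicate 2 (-1.02) or Cond 2 replicate 3 (-0.92). APIP (-0.31), of methionine salvage, was not called without Cond 1 replicate 2 (-0.24) or Cond 2 replicate 2 (-0.29). SLC38A1 (0.17 in Cond 2) was not called there without Cond 1 replicate 1 (0.16), Cond 1 replicate 2 (0.15) or Cond 2 replicate 2 (0.12).

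In Cond 3 the calls of further genes of the lists ended in the same way. SLC38A1 was not called without Cond 1 replicate 1 (0.14), Cond 1 replicate 2 (0.13), Cond 3 replicate 1 (0.13) or Cond 3 replicate 2 (0.12). APIP (-0.23) remained called only without Cond 1 replicate 3 and otherwise lay between -0.27 and -0.17. SLC46A1 (-0.75) was not called without Cond 1 replicate 1 (-0.65), Cond 1 replicate 3 (-0.79), Cond 3 replicate 1 (-0.60) or Cond 3 replicate 3 (-0.80). GCLM (-0.32), of glutathione synthesis, remained called only without Cond 1 replicate 2 and otherwise lay between -0.37 and -0.25. METTL16 (-0.18), a methyltransferase known to act on MAT2A mRNA, was not called without Cond 1 replicate 1 (-0.17), Cond 1 replicate 3 (-0.17), Cond 3 replicate 2 (-0.18) or Cond 3 replicate 3 (-0.14). MRI1 (0.40) of methionine salvage was not called without Cond 1 replicate 2 (0.40), Cond 1 replicate 3 (0.32), Cond 3 replicate 2 (0.405) or Cond 3 replicate 3 (0.29). PCMT1 (0.20), which repairs damaged aspartyl residues, was not called without Cond 1 replicate 3 (0.14), Cond 3 replicate 1 (0.19) or Cond 3 replicate 2 (0.20).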

How the data were processed

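RNA-Seq of 12 libraries of the human iPSC line 201B7 was analysed, 3 for each of 4 conditions. According to the methods and the submitters' processing notes, the authors used HISAT2 2.1.0 for alignment to GRCh38 after trimming, and featureCounts for counting. The authors deposited whole-number read counts per gene without normalization, and TPM values computed from these counts and gene lengths. The strand setting and the handling of reads with several matches are not given in the sources used here. Of 58580 lines of the count table, 5 held no whole gene row, and 2042 genes of the TPM table had no count row.

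After TMM normalization, the counts entered edgeR 4.0.16 (quasi-likelihood test, filterByExpr) in R 4.3.3, in one fit of 12 libraries, with Benjamini-Hochberg adjustment over 17747 genes. Genes with an adjusted p under 0.05 were called. Standard errors and 95% intervals came from this fit. The study converted counts to TPM for its later steps and used limma. Its volcano plots were of TPM, without genes under 1 TPM in any library. Here edgeR was the main test because counts were deposited. Count ratios have exact binomial intervals. Alternatives were upper-quartile normalization, DESeq2 1.42.0, no filter, a filter at 1 TPM in every library, limma 3.58.1 with trend and robust variances on log2(TPM + 1) and log2(TPM + 0.1), 6 libraries alone, a replicate block, pseudogenes summed, and each library left out. A robust quasi-likelihood fit was added after seeing the data. The tests were checked on simulated data.

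The genes described, the lists and the tests were chosen with earlier results of these data known. Genes named beside them were, per list and comparison with Cond 1, the up to 4 called genes with the largest absolute log2 fold change and a mean TPM of at least 1, all tested neighbours within 500 kb, and the 5 genes most like BHMT and GNMT. Values of some genes that this rule names are not reported here. Coordinates are from GENCODE release 44 and sequences from RefSeq (GRCh38.p14).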

Additional observations from a re-analysis of the deposited data

How the results depend on the processing

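Against the 9 tested of the 10 genes, 316 single-gene results under alternatives other than leaving out a library were computed, of which 295 kept their side of the threshold, 21 lost the call and 0 reversed. Most of the 316 belong to genes not called in the main fit. The 21 losses fell on the called genes, which numbered 3, 3, 0 and 4 in the 4 comparisons. For the other named genes 1248 of 1302 kept their side, 51 lost the call, 3 gained it and 0 reversed. The number of the 10 genes called in Cond 2 against Cond 1 went from 3 to 0 with limma on log2(TPM + 1) and to 0 on log2(TPM + 0.1). In Cond 3 against Cond 1 it went from 3 to 1 with either limma fit (BHMT kept) and to 1 with a filter at 1 TPM in every library, which removes BHMT and DMGDH and keeps MAT2A. In Cond 3 against Cond 2 it went from 4 to 1 with either limma fit and to 2 with the TPM filter. Leaving out libraries in turn gave 2 to 3, 2 to 3, 0 to 0 and 3 to 5 called genes in the 4 comparisons. Calls among neighbours in Cond 3 against Cond 1 went from 0 to 1 with 6 libraries alone and lay between 0 and 1 with single libraries left out. In Cond 3 against Cond 2 they went from 2 to 1 with upper-quartile normalization, no filter or limma on log2(TPM + 1), and lay between 0 and 3 with single libraries left out. Apart from the filter, the cause was not tested. MAT2A lost both calls with the robust fit. The TPM scale moved the median of all genes in Cond 2 against Cond 1 by 0.0841 with limma on log2(TPM + 0.1).

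No shift shared by same-numbered libraries was seen over the tested genes, where their deviations correlated between -0.0131 and 0.0379. The labels do not say whether the numbers mark a pairing, and these correlations cannot exclude one. With the replicate number as a block, 3, 3, 0 and 4 of the 10 genes were called, as without it, and 12, 31, 0 and 34 of the list genes.

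Depth limits BHMT2, DMGDH and BHMT outside Cond 3, where libraries held 0 to 23 reads.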
